A study of Mus musculus with 18 samples.

Results

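The comparison described here asks whether the effect of deleting Tsc2 in the mouse uterus depended on the ovaries. For each gene, the difference between uteri with and without ovaries in knockout mice was set against the same difference in wild-type mice, on the log2(FPKM + 1) scale, as (KO intact minus KO ovx) minus (WT intact minus WT ovx). This interaction is the same number as the KO minus WT difference with ovaries, less the KO minus WT difference after ovariectomy. It used 12 of the 18 libraries of the series, 3 in each of 4 groups, and 13898 of 25791 listed genes, namely those with an FPKM of at least 1 in 3 or more of the 18 libraries. FPKM are read numbers scaled by gene length and library size.

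All mice were 12 weeks old and of a mixed 129Sv X C57BL/6 strain, and RNA came from a cross section of the uterus. WT intact and KO intact mice kept their ovaries. WT ovx and KO ovx mice had lost them at 4 weeks of age. WT E2 and KO E2 mice, used here only to estimate the spread and for 1 comparison in other libraries, were also ovariectomized at 4 weeks and then carried a pellet of 0.5 mg 17β-estradiol, made to release for 90 days, during 8 weeks. KO stands for a uterine-specific Tsc2-null mouse; the labels name neither the Cre driver nor the cells it acts in, and they give no estrous stage for the intact mice. They also do not state that each library is a different animal, so every p-value below measures the spread among these samples, which may be technical.

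TSC2, with TSC1, holds the small GTPase RHEB inactive and so restrains mTORC1, a kinase complex that drives protein synthesis and cell growth and limits the making of lysosomes. The uterus is an epithelium on a stroma, wrapped in smooth muscle, and its epithelium enlarges and secretes under ovarian estradiol and progesterone. After ovariectomy it shrinks to a quiet, thin layer.

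The summed FPKM of the 12 libraries ran from 216032 to 423992, and read totals are unknown. Markers of uterine epithelium, smooth muscle and stroma were present in every library. Tsc2 (chromosome 17, 24686894 to 24769574 in the table's own coordinates) stood at 2.51, 2.25 and 2.04 FPKM in WT intact and 1.88, 1.99 and 1.62 in KO intact, with no overlap. It stood at 3.24, 3.49 and 3.17 FPKM in WT ovx and 2.98, 3.33 and 2.39 in KO ovx, where the groups overlapped. The log2 differences KO minus WT were -0.21 in intact and -0.15 in ovx (limma, adjusted p = 0.425 and 0.571), and the interaction was -0.06 ± 0.18 (SE; adjusted p = 0.875). Which exons were deleted is not in the labels, so FPKM over the whole gene is a weak check of genotype. Of the 4 groups, the WT intact libraries were the least alike, with a mean r across genes of 0.891 to 0.926 with the rest of their group. WT intact replicate 4 held 21800 FPKM of genes known to be induced by estrogen, against 570.9 and 2224 in replicates 1 and 2. KO intact held 334.7 to 844.1 FPKM of them. The same WT intact replicate had 95.95 FPKM of stromal markers, against 498.2 and 601.9, and 11.68 of blood endothelium markers, against 57.44 and 50.57. KO ovx replicate 4 had an r of 0.921 and a summed FPKM of neutrophil markers of 302.7, against 27.5 and 23.0 in replicates 1 and 2. Its summed FPKM also stood apart in macrophage markers (576.9, against 45.3 and 58.7), adipocyte markers (161.2, against 4.02 and 4.49) and immediate early genes (1190.0, against 71.1 and 45.0), and WT ovx replicate 3 held 3031 FPKM of immediate early genes. The genes Fxyd2, Cyp26a1 and Car4 were highest in KO ovx replicate 4 and kept their calls without it.

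The genotype difference changed with the ovaries for 643 genes, 4.63% of those tested, at an adjusted p under 0.05 (limma, Benjamini-Hochberg). The interaction was negative for 501 of them (3.6% of all tested) and positive for 142 (1.02%). An unadjusted p under 0.05 was reached by 3435 genes. Over all genes tested the median interaction was -0.14, with 40% of genes positive. Among the 643, the KO minus WT difference had opposite signs in the 2 ovary states in 588 (91.4%), and in 57.9% of all genes tested. The called genes were chosen for a difference between these same contrasts, so nothing is read from that gap.

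Among the 501 negative genes, the highest group mean was in WT intact for 313 and in KO ovx for 187, and 1 (Trp53inp2, named after its values were seen) was highest in KO intact. KO was called higher than WT after ovariectomy in 259 of them (4.63% of all genes tested) and lower than WT with ovaries in 92 (0.993%). Among the 142 positive genes, 70 were highest in KO intact and 72 in WT ovx. KO was called higher with ovaries in 44 (1.19% of all genes tested) and lower after ovariectomy in 39 (0.791%). Both contrasts are parts of the interaction, so nothing is read from these shares. In these same libraries, intact differed from ovx at 6299 genes in WT (45.3%; 29.9% higher with ovaries and 15.4% lower) and at 2206 in KO (15.9%; 7.14% higher and 8.74% lower). KO differed from WT at 303 genes in intact (2.18%) and 753 in ovx (5.42%).

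**Figure D1:**
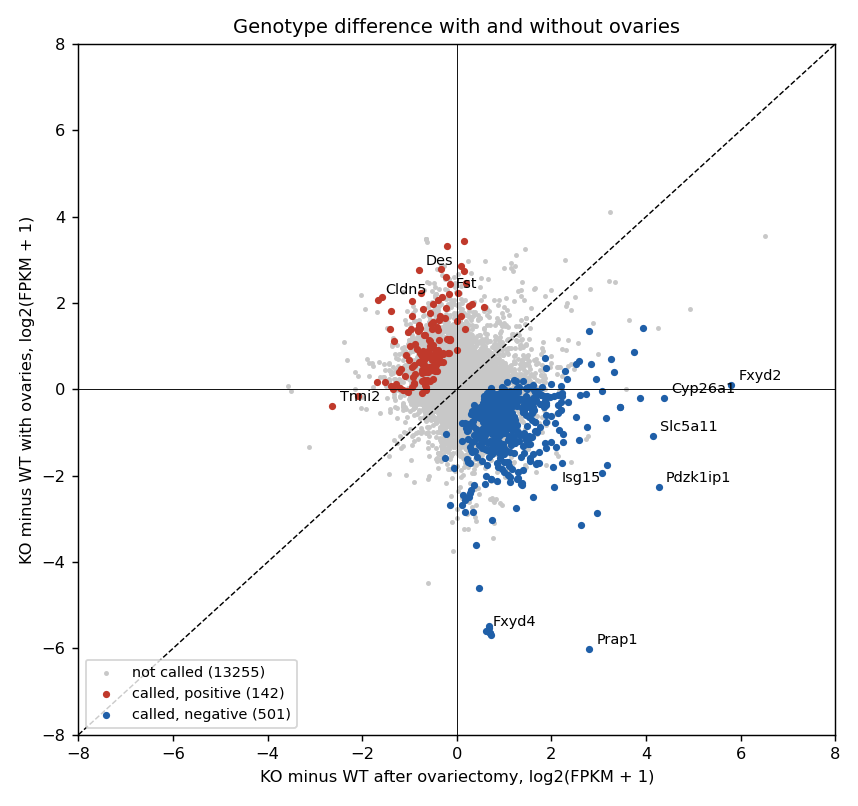
Each point is 1 of 13898 genes, with the KO minus WT difference after ovariectomy across and with ovaries upward, both in log2(FPKM + 1); genes on the dashed diagonal have no interaction. The 501 negative genes (blue) lie below the diagonal, mostly to the right of 0 and under it, and the 142 positive genes (red) lie above it.

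The number of calls depended on single libraries. It fell to 87 without WT ovx replicate 1, 184 without KO intact replicate 3, 225 without KO ovx replicate 4, 228 without KO intact replicate 1, 232 without WT ovx replicate 3, 252 without WT ovx replicate 2, 278 without KO ovx replicate 1 and 365 without WT intact replicate 4. It was 1033 without KO ovx replicate 2 and 1178 without WT intact replicate 1. Calls kept under each of the 12 omissions numbered 72 of the 501 negative and 14 of the 142 positive genes. With WT intact replicate 4 and KO ovx replicate 4 both left out, 199 genes were called, 173 negative and 26 positive. All 643 genes had the same sign of interaction in each of these fits. The steps of the lowest FPKM values were used to divide the libraries into 4 sets, a number that was fixed and not found. The labels do not name these sets. All KO ovx libraries fell in the same set as WT ovx replicates 1 and 3, and WT ovx replicate 2 fell in another. No set held both intact and ovx libraries, so the response to the ovaries within a genotype and the set cannot be told apart. Within the 9 intact and ovx libraries of the largest set of each state, 24 genes were called and all 643 again had the same sign. These fits reuse the libraries in which the 643 were chosen, so nothing is read from the kept signs.

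Prap1, Serpina1a and its copies, and Fxyd4, all among the 15 most negative genes, were high in WT intact and low in KO intact. Prap1, an epithelial secretory protein of the pregnant uterus (chromosome 7, 147279294 to 147283102), stood at 44.6, 632 and 688 FPKM in WT intact and at 2.33, 2.25 and 5.73 in KO intact. It stood at 0.207, 0.319 and 0.228 FPKM in WT ovx and at 5.26, 3.38 and 23.0 in KO ovx. Every WT intact library lay above every KO intact one, while after ovariectomy every KO library lay above every WT one. The interaction was -8.82 ± 1.68 (SE; adjusted p = 0.0157), with KO minus WT at -6.02 in intact (adjusted p = 0.019) and 2.80 in ovx (adjusted p = 0.187).

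Serpina1a, 1 of the mouse genes for alpha-1-antitrypsin, an inhibitor of neutrophil elastase, stood at 38.8, 64.8 and 147 FPKM in WT intact and 0.848, 0.44 and 0.496 in KO intact. In the ovx groups it stood at 1.11, 0.0988 and 0.072 FPKM in WT and 0.555, 0.0464 and 5.38 in KO. Its high libraries were the 3 WT intact ones, and the ovx groups overlapped (interaction -6.21 ± 1.22, adjusted p = 0.0157). Serpina1b, Serpina1c, Serpina1d and Serpina1e gave interactions of -6.35, -6.34, -6.17 and -6.40. These are near-identical copies that share reads, as LOC100504190 may (-5.06), so they cannot be counted as separate observations. The call of Serpina1a was lost when WT intact replicate 4 and KO ovx replicate 4 were both left out, as were the calls of Prap1 and the other copies, and in the same samples the summed neutrophil markers ran from 99.8 to 650.6 FPKM in WT intact and from 33.6 to 77.0 in KO intact.

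Fxyd4, a regulator of the sodium pump, had the same intact pattern with tighter replicates. It stood at 64.3, 77.5 and 116 FPKM in WT intact and 0.92, 0.716 and 0.605 in KO intact, beside 5.79, 12.3 and 9.39 in WT ovx and 16.9, 8.51 and 18.7 in KO ovx. The intact groups were far apart and the ovx groups overlapped, and KO intact was below every ovx library. The interaction was -6.21 ± 1.09 (adjusted p = 0.0114), and intact was lower than ovx in KO by -3.10 on the log2 scale (adjusted p = 0.0137) but higher in WT by 3.11 (adjusted p = 0.0051). Gcnt3, which builds core branches of mucin sugars, followed at 17.1, 17.3 and 4.43 FPKM in WT intact and 1.27, 0.159 and 0.295 in KO intact (interaction -3.76, adjusted p = 0.0181, lost at 0.0547 without KO intact replicate 3 and 0.0535 without WT ovx replicate 1).

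A second shape joined high levels in WT intact to high levels in KO ovx. Pdzk1ip1, a small membrane protein of epithelia that acts with sodium-glucose transport, stood at 57.5, 46.4 and 59.8 FPKM in WT intact and 7.91, 12.8 and 11.3 in KO intact. It stood at 2.27, 5.76 and 3.88 FPKM in WT ovx and 88.9, 64.1 and 130.1 in KO ovx. The groups did not overlap in either state and their order was reversed between the states. The interaction was -6.53 ± 0.93 (adjusted p = 0.00599), with 4.27 in ovx (adjusted p = 0.00184) and -2.27 in intact (adjusted p = 0.0851).

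Wfdc2, a secreted whey-acidic protein of reproductive epithelia, stood at 194, 329 and 233 FPKM in WT intact, 56.8, 106 and 68.0 in KO intact, 55.5, 108 and 89.4 in WT ovx, and 371, 264 and 578 in KO ovx. Its KO ovx and WT intact libraries were all above the other 2 groups (interaction -3.94 ± 0.72, adjusted p = 0.0131). Calb1 (calbindin, a calcium buffer), Hdc (which makes histamine), Ckmt1 (mitochondrial creatine kinase) and Sult1d1 (a sulfotransferase) had interactions of -5.83, -5.75, -5.00 and -4.93. Their WT intact libraries were scattered: Hdc stood at 109, 13.6 and 1.25 FPKM there and at 36.2, 23.1 and 46.3 in KO ovx. Calls ended without WT ovx replicate 1 for all 4 of them (adjusted p 0.0576 to 0.102). Besides, those of Calb1, Hdc or Ckmt1 ended without KO intact replicates 1, 3 or 4, WT ovx replicates 2 or 3, KO ovx replicates 1 or 4 or, for Calb1, WT intact replicate 2 (adjusted p 0.0524 to 0.0959). The other 11 of the 15 most negative genes kept their call under each single omission.

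Epithelial markers mostly had negative interactions too. The summed FPKM of 24 uterine epithelial genes ran from 597 to 2291 in WT intact, 334.7 to 636.8 in KO intact, 282.1 to 1100.0 in KO ovx and 113.2 to 210.3 in WT ovx. The intact groups overlapped and the ovx groups did not. WT intact replicate 4 held the 2291, beside 597 and 999.5 in replicates 1 and 2. KO ovx replicate 4 held the 1100.0, beside 399.8 and 282.1 in replicates 1 and 2. Of the 24 list genes tested, 3 were called (12.5%, beside 4.63% of all genes), all negative, and the median interaction was -2.27. They were Ovol1, an epithelial transcription factor (-1.17, adjusted p = 0.0163), Prss8, the protease prostasin (-2.42, adjusted p = 0.0268), and Cldn3, a tight junction protein (-3.34, adjusted p = 0.0416). The uterine epithelium count was 0 without WT ovx replicate 1, 1 without WT ovx replicate 3, KO intact replicate 3, WT intact replicate 4 or KO intact replicate 1, and 6 without WT intact replicate 1 or KO ovx replicate 2. Leaving out KO ovx replicate 4 ended the calls of Prss8 and Cldn3 (limma, adjusted p = 0.0705 and 0.111). From whole tissue, fewer cells of a type and less RNA per cell cannot be told apart, and the part of epithelial content in the values of single genes was not tested.

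**Figure D2:**
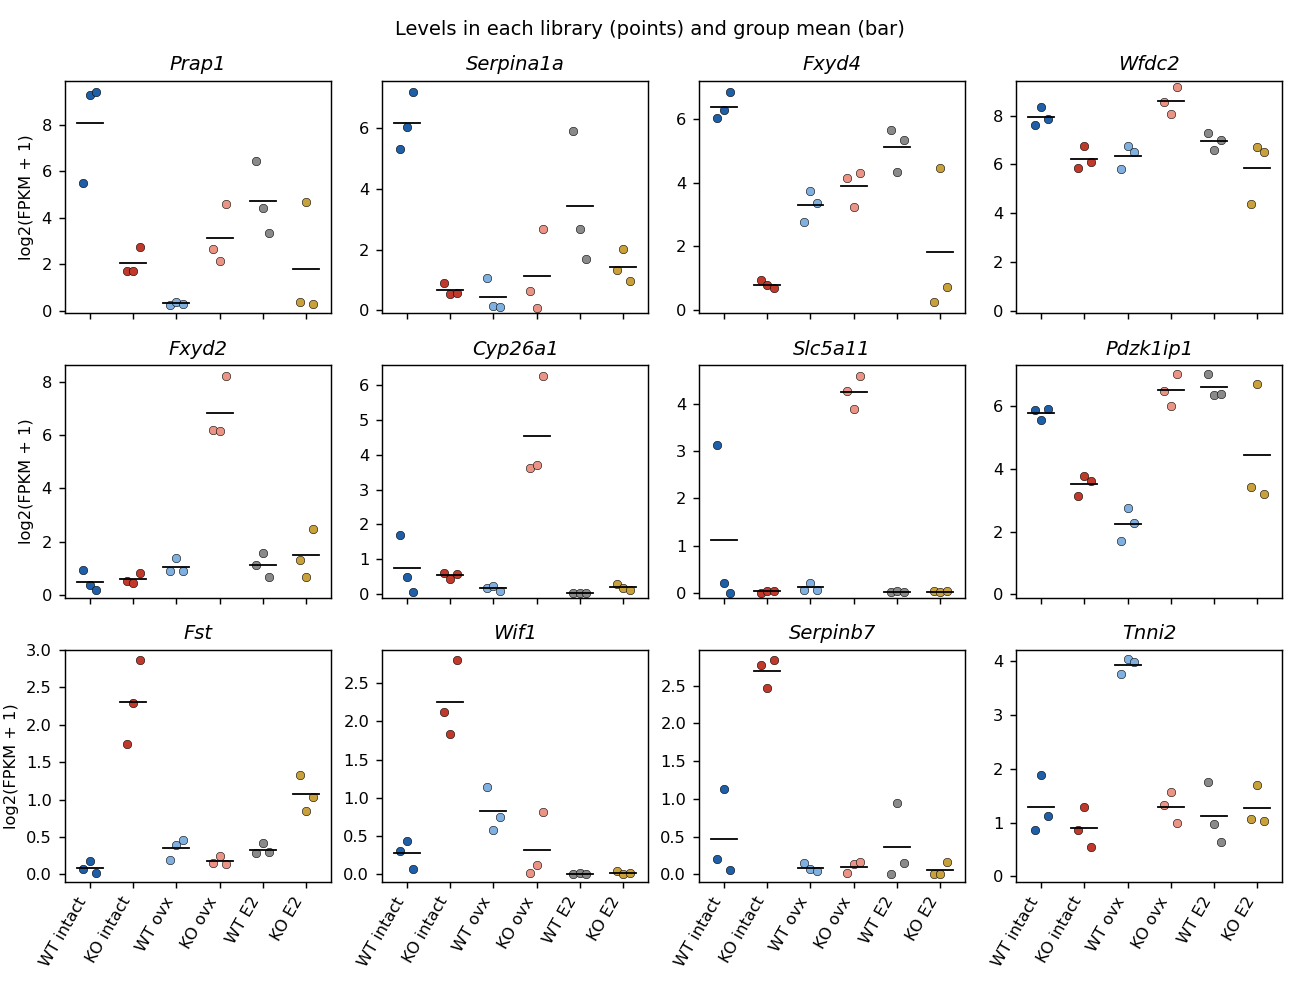
Points are log2(FPKM + 1) in each library and bars the mean of 3, for 12 genes in 6 groups; the vertical scale differs between panels. Prap1, Serpina1a and Fxyd4 were high in WT intact, Fxyd2, Cyp26a1 and Slc5a11 in KO ovx, Fst, Wif1 and Serpinb7 in KO intact, and Tnni2 in WT ovx.

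Other genes were high mainly in KO ovx. Fxyd2, a modulator of the sodium pump best known from kidney tubules (chromosome 9, 45207791 to 45218361), stood at 71.4, 69.4 and 297 FPKM in KO ovx. Its other 9 intact and ovx libraries lay at or below 1.58 FPKM. The interaction was -5.69 ± 0.71 (adjusted p = 0.00209), with 5.80 in ovx (adjusted p = 1.57e-05) and 0.10 in intact. In the E2 state, KO stood at 1.5, 0.593 and 4.62 FPKM and WT at 1.2, 1.99 and 0.608, which overlapped.

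Slc5a11, a sodium-coupled inositol transporter, stood at 18.4, 13.9 and 23.0 FPKM in KO ovx and at 0.0476, 0.151 and 0.0489 in WT ovx. Its only other sizeable value among the 12 libraries was 7.7 FPKM in WT intact replicate 1 (interaction -5.22 ± 0.76, adjusted p = 0.00599). Cyp26a1, which breaks down retinoic acid, stood at 11.4, 12.2 and 75.8 FPKM in KO ovx and 0.121, 0.174 and 0.0709 in WT ovx (interaction -4.58 ± 0.74, adjusted p = 0.00655). The highest intact value of Cyp26a1 was 2.27 FPKM, in WT intact replicate 1.

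Cyp4a12a, a fatty acid hydroxylase named here after its values were seen, stood at 8.69, 19.7 and 6.01 FPKM in KO ovx. Its other 9 libraries lay at or below 0.919 FPKM (interaction -3.85 ± 0.41, adjusted p = 0.000479). Reads of Cyp4a12a and its copy Cyp4a12b cannot be assigned apart, and the related Cyp4a10, Cyp4a29, Cyp4a30b, Cyp4a31 and Cyp4a32 were called too (interactions -2.05, -1.91, -2.20, -1.99 and -2.15).

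Car4, a carbonic anhydrase on the cell surface, stood at 18.7, 15.8 and 60.9 FPKM in KO ovx and at 1.2, 1.1 and 0.872 in WT ovx (interaction -2.87, adjusted p = 0.0147). Wnt11, a WNT ligand, stood at 9.3, 5.6 and 9.36 FPKM in KO ovx and 1.25, 2.0 and 2.04 in WT ovx, while KO intact held at most 0.0452 (interaction -2.70, adjusted p = 0.0117). Ckm, the muscle creatine kinase, stood at 33.1, 29.2 and 51.7 FPKM in KO ovx and 8.54, 10.3 and 9.35 in WT ovx (interaction -2.14, adjusted p = 0.0242, kept in 7 of 12 omissions). In all 3 genes the KO ovx libraries lay above every library of the other 3 groups.

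The list of the sodium pump and its FXYD regulators gave 4 negative calls and 1 positive call among 13 genes tested, with a median of -1.01. Over all genes tested, 3.6% were called negative and 1.02% positive, and the median was -0.14. Fxyd2 and Fxyd4 were among the negative calls. The positive call was Fxyd7, at 5.25, 3.17 and 4.1 FPKM in WT ovx and 1.3, 1.17 and 0.805 in KO ovx, with both intact groups at or below 0.43. Its ovx groups were apart and its intact groups overlapped (interaction 1.41 ± 0.27, adjusted p = 0.0157, lost at 0.0547 without WT ovx replicate 1).

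Interferon response genes, which cells switch on after sensing viral nucleic acid or interferon, were called in 9 of 30 cases, all negative, beside 3.6% of all genes called negative. Their median interaction was -1.68, beside -0.14 over all genes. The list median of KO minus WT was -1.05 in intact and 0.67 in ovx. Factors of the ISGF3 and IRF families act on these genes through an interferon-stimulated response element. The 140 bases before the start site of 3 called genes are printed to show where that element's core lay, spelled TTTC, any 2 bases, TTTC, or on the other strand GAAA, any 2 bases, GAAA (RefSeq, GRCm38.p6; matches in capitals, overlapping ones merged). The windows are chr19:34640749-34640888 on the plus strand, chr4:156200819-156200958 on the minus strand and chr5:120907526-120907665 on the minus strand.
Ifit1: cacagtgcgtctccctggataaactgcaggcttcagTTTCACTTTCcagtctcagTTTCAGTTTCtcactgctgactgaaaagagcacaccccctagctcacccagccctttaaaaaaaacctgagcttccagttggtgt
Isg15: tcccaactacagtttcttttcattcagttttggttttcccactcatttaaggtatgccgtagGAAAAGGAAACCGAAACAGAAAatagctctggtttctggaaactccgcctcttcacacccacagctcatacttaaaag
Oas1a: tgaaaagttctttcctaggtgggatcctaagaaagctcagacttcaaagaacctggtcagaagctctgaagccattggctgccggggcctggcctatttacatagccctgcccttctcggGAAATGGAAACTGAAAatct

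Windows of 250 bases before to 50 after the start could be matched for 23 of the 30 genes, and 13 of them (56.5%) held the core, including 4 of the 7 called genes with a window. It was held by 3.99% of 27025 genes in the table. A match describes these letters and is not a measured binding site.

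Isg15, a ubiquitin-like protein attached to others during the interferon response, stood at 8.16, 9.0 and 35.8 FPKM in WT intact and 1.63, 2.38 and 2.44 in KO intact. It stood at 1.02, 1.73 and 1.62 FPKM in WT ovx and 19.5, 4.85 and 7.69 in KO ovx. The groups did not overlap in either state and were in opposite order (interaction -4.32 ± 0.82, adjusted p = 0.0157). Irf7, the transcription factor that amplifies the response, stood at 3.94, 9.71 and 22.3 FPKM in WT intact and 0.783, 0.898 and 1.05 in KO intact. In the ovx groups it stood at 1.03, 1.16 and 1.05 FPKM in WT and 12.4, 3.87 and 2.87 in KO, again without overlap (interaction -4.10 ± 0.85, adjusted p = 0.0186).

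Oas1a, an activator of RNase L, had an interaction of -3.46 ± 0.72 (adjusted p = 0.0186), and Ifit1, which binds foreign RNA ends, of -3.82 ± 0.84 (adjusted p = 0.0225). The other calls were Oasl2, Irf9, Oas2, Ddx58 and Ifi27l2a, at -1.70 to -4.01. The 9 were the same sign in each fit, but they were chosen in these same libraries. Interferon response calls numbered 0 without WT ovx replicate 1 (the named 4 at adjusted p 0.0535 to 0.0701). They numbered 3 without WT ovx replicate 3, KO ovx replicate 1 or KO intact replicate 1. They numbered 4 without WT ovx replicate 2 or KO intact replicate 3, and 14 without WT intact replicate 1.

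**Figure D3:**
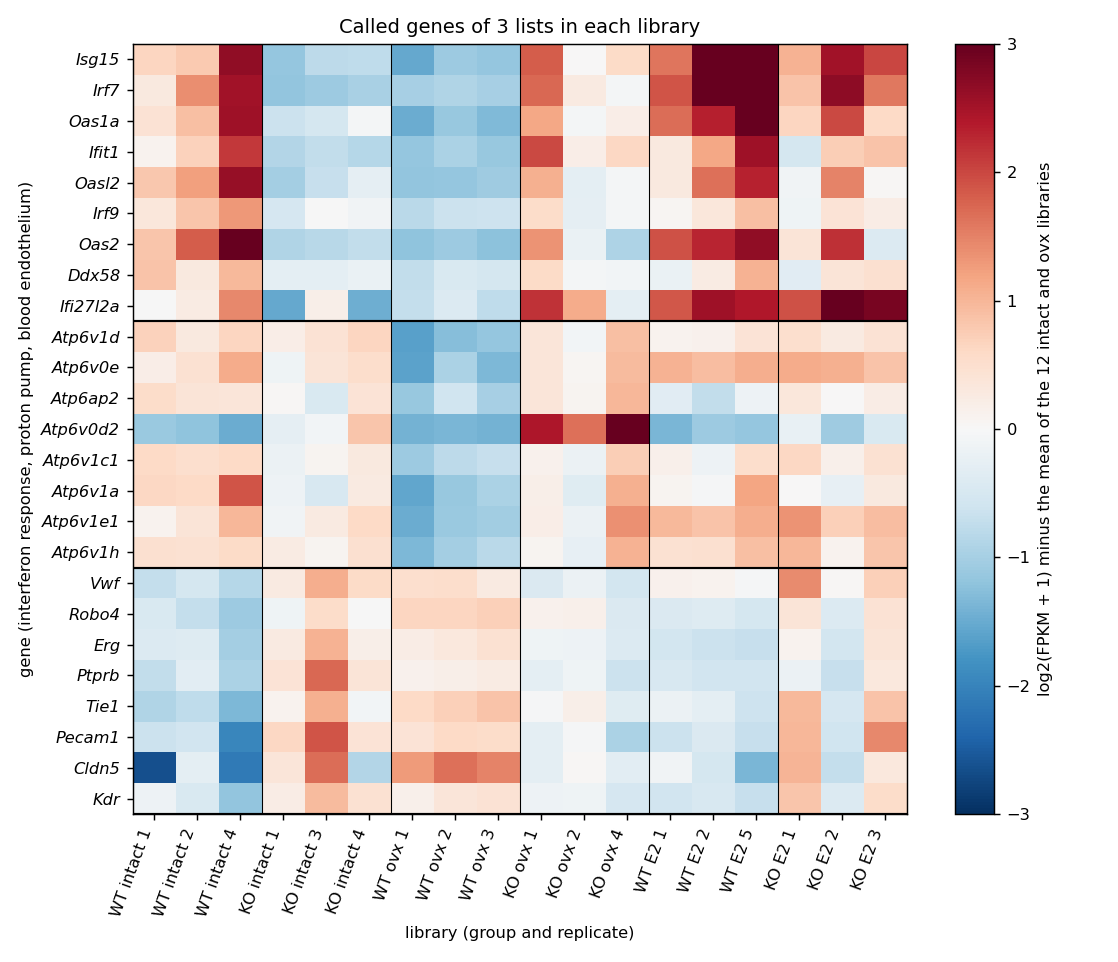
Color gives log2(FPKM + 1) minus the gene's mean over the 12 intact and ovx libraries, for the called genes (rows) of 3 lists in 18 libraries (columns), limited to 3 either way. The 9 interferon response genes were below the mean in every WT ovx library and, of those 12, highest in WT intact replicate 4 or KO ovx replicate 1, the 8 proton pump genes were below it in every WT ovx library, and the 8 blood endothelium genes were below it in every WT intact library.

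The vacuolar proton pump, which acidifies lysosomes and, on some epithelia, the lumen, was called in 8 of 19 genes, all negative (3.6% of all genes were), and all 19 were below 0 (median -1.39). Here the difference lay in the ovx state. The list median of KO minus WT was 1.39 in ovx, with 15 genes called higher in KO, beside 4.63% of all genes tested. In intact the list median was -0.11, with none called, beside 1.19% of all genes called higher in KO and 0.993% lower. Atp6v1d, a stalk subunit, stood at 18.1, 13.6 and 17.5 FPKM in WT intact, 12.7, 15 and 17.6 in KO intact, 2.87, 3.9 and 4.32 in WT ovx, and 14.3, 10.2 and 21.3 in KO ovx. The 3 WT ovx libraries were low and the other 3 groups overlapped (interaction -1.86 ± 0.32, adjusted p = 0.0111). Atp6v0e, Atp6ap2 and Atp6v1c1 had interactions of -2.09, -1.82 and -1.59 (adjusted p = 0.0147, 0.0163 and 0.0192).

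Atp6v0d2, an alternative subunit of the membrane sector and named after its values were seen, differed from the rest. It stood at 14.0, 7.79 and 30.4 FPKM in KO ovx, 1.31, 1.63 and 4.02 in KO intact and at most 0.305 in either WT group (interaction -2.51, adjusted p = 0.0192, kept in 9 of 12 omissions). The proton pump count was 1 without WT ovx replicate 1, 3 without KO intact replicate 1, 4 without KO intact replicate 3, 5 without WT ovx replicate 2 or KO ovx replicate 4, and 12 without WT intact replicate 1.

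Lysosomal genes gave 4 calls among 30, all negative, beside 3.6% of all genes, with a median of -0.59. Neu1, a lysosomal sialidase, stood at 18.8, 16.0 and 31.9 FPKM in KO ovx and 2.1, 2.53 and 2.47 in WT ovx. It stood at 4.39, 4.5 and 9.83 FPKM in WT intact and 4.68, 5.12 and 6.57 in KO intact, which overlapped (interaction -2.83 ± 0.44, adjusted p = 0.00615, kept under each omission). Lamp2, a lysosomal membrane protein, Hexa, a hexosaminidase subunit, and Ctsb, the protease cathepsin B, were at -2.24, -1.39 and -2.16. Of these, Lamp2 lost its call without WT ovx replicate 1 (adjusted p = 0.0514), and Hexa or Ctsb lost theirs under omission of any of 10 libraries (adjusted p 0.0511 to 0.124). Rragd, a Rag GTPase that brings mTORC1 to lysosomes and is itself a target of the MiT factors, was higher in KO in both states: its FPKM were 2.49, 2.35 and 2.95 in KO intact (WT intact 0.601, 0.394 and 0.221) and 8.49, 5.45 and 12.3 in KO ovx (WT ovx 0.281, 0.455 and 0.337). Neither pair overlapped, and the difference was larger after ovariectomy (interaction -1.42 ± 0.29, adjusted p = 0.017, lost at 0.0519 without KO intact replicate 3 and 0.0576 without WT ovx replicate 1).

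Lysosomal and pump genes are known targets of MiT factors, which bind E-boxes. The letters CACGTG, which read the same on both strands, were in the windows of 4 of 13 matched proton pump genes (30.8%) and 11 of 25 lysosomal genes (44%), beside 8.09% of 27025 genes in the table, 11.4% of the tested genes with a window and 9.44% of the called negative ones. Among called genes with a window, 2 of 5 pump genes and 0 of 3 lysosomal genes held them. The longer CLEAR element, the same letters with GT before and AC after, was in 0 of 13 pump genes and 1 of 25 lysosomal genes, beside 0.718% of tested genes. The called pump gene Atp6v1a (-2.66, adjusted p = 0.0237, kept in 7 of 12 omissions) is printed as an example with the match in capitals, at chr16:44139260-44139399 on the minus strand.
Atp6v1a: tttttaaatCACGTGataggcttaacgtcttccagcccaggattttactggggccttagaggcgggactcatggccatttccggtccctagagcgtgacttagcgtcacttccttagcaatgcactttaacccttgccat

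Oxidative phosphorylation, the mitochondrial chain that makes ATP, was called in 4 of 31 genes, all negative (beside 3.6% of all genes), with all 31 below 0 and a median of -1.08. The calls were Atp5j (-1.65, adjusted p = 0.018) and Cox5a (-2.86, adjusted p = 0.021), with Cox6c and Ndufa1 at -1.26 and -1.48. Cox5a stood at 6.74, 10.7 and 10.8 FPKM in WT ovx and 33.2, 26.5 and 84.9 in KO ovx, with 64.2, 62.4 and 191 in WT intact and 41.5, 61.9 and 57.3 in KO intact. As for the pump, the low group was WT ovx. Without WT ovx replicate 1 none of the 31 was called, and the oxidative phosphorylation median was -0.50 after quantile normalization, in place of -1.08. Genes of glycolysis and hypoxia had a median of -0.75 with 0 of 22 called. Of the 22, 4 had an unadjusted p under 0.05, beside 3435 of all 13898 genes tested.

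On the positive side, a few secreted regulators were present in KO intact and scarce in the other 3 groups. Fst, follistatin, which binds and blocks activins (chromosome 13, 115242469 to 115248938), stood at 2.34, 3.91 and 6.26 FPKM in KO intact. The other 9 libraries of the 4 groups lay at or below 0.38 FPKM. The interaction was 2.38 ± 0.30 (adjusted p = 0.00209), with 2.21 in intact (adjusted p = 0.000376) and -0.17 in ovx. Inhbb, the beta B chain of activin and inhibin, stood at 17.8, 21.2 and 29.7 FPKM in KO intact and 0.562, 2.3 and 6.71 in WT intact, with both ovx groups at or below 2.28 (interaction 3.10 ± 0.71, adjusted p = 0.0267). Both were among the 3 calls, all positive, in the 14 genes of the activin and follistatin list, whose median was 1.2. Of all genes tested, 1.02% were called positive.

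Wif1, a secreted WNT inhibitor, stood at 3.33, 2.58 and 5.95 FPKM in KO intact, 0.238, 0.35 and 0.0517 in WT intact, 1.2, 0.496 and 0.674 in WT ovx and 0.0101, 0.0824 and 0.752 in KO ovx. Only KO intact exceeded 1.2 FPKM (interaction 2.49 ± 0.34, adjusted p = 0.0041). Serpinb11 and Serpinb7, serine protease inhibitors of the clade held inside cells, behaved alike, with Serpinb11 at 19.5, 15.7 and 40.2 FPKM in KO intact and at most 3.94 elsewhere among the 4 groups (interaction 3.28, adjusted p = 0.0215). Cldn2, a claudin that forms cation pores, stood at 6.47, 7.37 and 17.7 FPKM in KO intact and at most 0.716 in the other 3 groups (interaction 2.78, adjusted p = 0.0274). In the E2 state Cldn2 ran the other way, at 22.2, 16.6 and 38.2 FPKM in WT and 0.349, 4.93 and 0.94 in KO (-3.34, adjusted p = 0.000649).

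Other positive genes were high in WT ovx. Tnni2, a fast skeletal troponin I, stood at 12.6, 15.5 and 14.9 FPKM in WT ovx and at most 2.69 in the other 3 groups (interaction 2.24 ± 0.44, adjusted p = 0.0157). Nid2, a basement membrane protein, stood at 4.96, 5.09 and 4.09 FPKM in WT ovx and at most 1.19 elsewhere among the 4 groups (1.68 ± 0.28, adjusted p = 0.00827). Igf2, an imprinted growth factor, stood at 3.25, 2.65 and 4.4 FPKM in WT ovx, 0.735, 0.733 and 0.494 in KO ovx, 0.156, 0.605 and 0.0473 in WT intact and 0.962, 6.41 and 1.46 in KO intact. For Igf2 neither pair overlapped and the order was reversed (interaction 2.81 ± 0.50, adjusted p = 0.0117). H19, the noncoding RNA imprinted beside it, was near 0 in WT intact alone, at 0.13, 0.217 and 0.0282 FPKM (2.59 ± 0.71, adjusted p = 0.0491).

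Blood endothelial genes had the largest share of calls among the cell type lists, 8 of 15 genes (53.3%), all positive, beside 1.02% of all genes, with a median of 2.00. The list median of KO minus WT was 1.35 in intact and -0.58 in ovx. Vwf, the von Willebrand clotting factor, stood at 0.146, 0.3 and 0.0374 FPKM in WT intact and 1.27, 2.98 and 1.8 in KO intact. It stood at 1.64, 1.71 and 1.27 FPKM in WT ovx and 0.388, 0.653 and 0.284 in KO ovx. WT intact and KO ovx were the low groups and neither pair overlapped (interaction 2.17 ± 0.38, adjusted p = 0.0117, kept under each omission). Robo4, an endothelial guidance receptor, Erg, an endothelial transcription factor, and Ptprb, the phosphatase VE-PTP, followed at 1.61, 1.68 and 2.05 (adjusted p = 0.02, 0.0205 and 0.0225), with calls kept in 8, 8 and 9 of 12 omissions.

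Cldn5, the tight junction protein of vessels, had the largest positive interaction of the genes named by the 5 FPKM rule. It stood at 0.5, 6.66 and 1.13 FPKM in WT intact, 11.1, 29.0 and 4.09 in KO intact, 21.8, 28.4 and 25.3 in WT ovx and 6.67, 8.52 and 6.55 in KO ovx (3.74 ± 0.90, adjusted p = 0.032). Its ovx groups were apart and its intact groups overlapped. Pecam1, an adhesion molecule of endothelium, was at 2.98, Thbd, thrombomodulin, at 3.21 and Mmrn2, an endothelial matrix protein, at 2.64. Flt4, the VEGF receptor of lymphatic vessels, was the 1 call among 6 lymphatic genes, beside 1.02% of all genes called positive. It stood at 4.12, 6.98 and 2.12 FPKM in KO intact and at most 1.74 in the other 3 groups. Its interaction was 1.99 ± 0.40 (adjusted p = 0.0167, lost at 0.0535 without WT ovx replicate 1).

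The summed blood endothelium markers stood at 57.44, 50.57 and 11.68 FPKM in WT intact and 57.23, 135.6 and 64.14 in KO intact. These groups overlapped, and the low value was WT intact replicate 4. The sums ran from 65.1 to 76.7 FPKM in KO ovx and 87.1 to 103.5 in WT ovx. Red cell markers stood at 5.99 to 12.2 FPKM in WT intact and 38.2 to 70.03 in KO intact. They stood at 22.4 to 47.7 FPKM in KO ovx and 42.0 to 50.9 in WT ovx. The part of vessel or blood content in these results was not tested. The blood endothelium count was 1 without WT ovx replicate 1, WT ovx replicate 3 or KO ovx replicate 4, 2 without KO intact replicate 3, 4 without WT intact replicate 4, WT ovx replicate 2 or KO ovx replicate 1, and 5 without KO intact replicate 1.

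Smooth muscle genes had a higher median interaction than endothelium, 2.40, but 1 of 20 was called (5%, beside 4.63% of all genes). An unadjusted p under 0.05 was reached by 17 of the 20, beside 3435 of all 13898 genes tested. Des, desmin, stood at 19, 32 and 5.7 FPKM in WT intact, 123, 134 and 81.6 in KO intact, 78.8, 91.9 and 83.5 in WT ovx and 61.7, 78.4 and 22.5 in KO ovx (3.57 ± 0.90, adjusted p = 0.0372). WT intact was the low group. Myh11, smooth muscle myosin, stood at 6.32, 36.6 and 3.29 FPKM in WT intact and 103, 91.4 and 21.2 in KO intact, and did not pass (3.13 ± 1.08, adjusted p = 0.0967). The smooth muscle median was 1.2 with WT intact replicate 4 and KO ovx replicate 4 left out, and the sign of the list median in ovx turned from -0.32 to 0.13.

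Matrix glycoproteins gave 3 positive calls among 24 genes, beside 1.02% of all genes, with a median of 1.46. Beside Nid2 these were Fn1, fibronectin (3.73 ± 0.94, adjusted p = 0.0375), and Aspn, a small proteoglycan (2.60, adjusted p = 0.0408). By limma, the 14 stromal markers had 0 calls at a median of 1.73, with 2 at an unadjusted p under 0.05. Of 19 collagens 0 were called at a median of 1.18, with 6 at an unadjusted p under 0.05. Both counts stand beside 3435 of all 13898 genes tested. Mustn1 and Pgm5, both known from muscle, Tspan7, a tetraspanin, and Ednra, an endothelin receptor, were at 3.53, 3.00, 2.83 and 2.58.

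Calls among the 15 most positive genes were sensitive to the omission of many of the libraries. None of the 15 was kept under every omission. Calls that ended numbered 15 without WT ovx replicate 1 (adjusted p 0.0597 to 0.116), 14 without KO intact replicate 3 (0.053 to 0.107), and 13 without each of WT ovx replicate 2 (0.0539 to 0.083), WT ovx replicate 3 (0.0512 to 0.109), KO ovx replicate 1 (0.0505 to 0.0811) and KO ovx replicate 4 (0.0508 to 0.126). They numbered 10 without WT intact replicate 4 (0.0514 to 0.0966), 7 without KO intact replicate 1 (0.0502 to 0.0993), 6 without KO intact replicate 4 (0.0509 to 0.0746), and 2 without each of WT intact replicate 1 (Aspn at 0.052 and H19 at 0.0517) and WT intact replicate 2 (Fn1 at 0.058 and H19 at 0.0574). Fst, Wif1, Serpinb7, Igf2, Vwf, Nid2 and Tnni2 kept theirs under each single omission, as 14 of the 142 positive genes did.

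**Figure D4:**
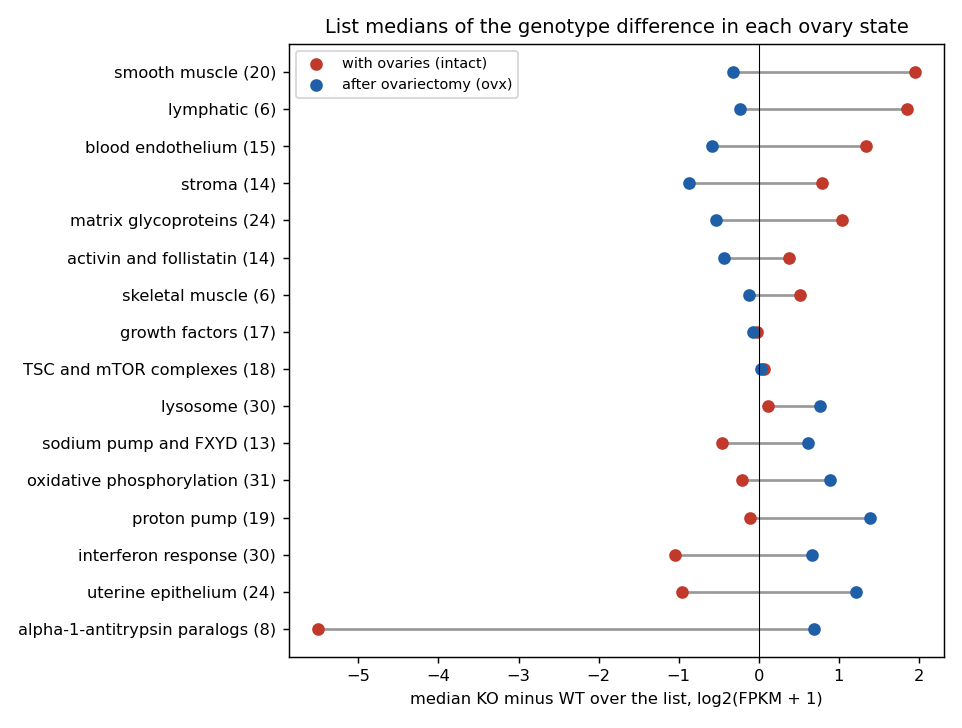
Each line is a gene list with its number of tested genes, and its points are the median KO minus WT difference in log2(FPKM + 1) with ovaries (red) and after ovariectomy (blue). The smooth muscle, lymphatic and blood endothelium medians are above 0 with ovaries only, the proton pump and oxidative phosphorylation medians are above 0 after ovariectomy only, and the TSC and mTOR medians are near 0 in both.

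Of 18 genes for TSC and mTOR complexes and their sensors, 0 were called by limma, with a median of 0.06 and a range from -0.98 to 0.77. An unadjusted p under 0.05 was reached by 2 of the 18, beside 3435 of all 13898 genes tested. Tsc1 stood at 0.09 (adjusted p = 0.812). Esr1, the main estrogen receptor of the uterus, had an interaction of 0.41 ± 0.46 (adjusted p = 0.62) and Pgr, the progesterone receptor, of -0.26 ± 0.58 (adjusted p = 0.826). Of 29 genes known to be induced by estrogen, 3 were called, beside 4.63% of all genes: Prap1 negative, and Inhbb and Ctgf, a matricellular growth regulator (2.27, adjusted p = 0.0431), positive. The median interaction of the 29 was -1.09, beside -0.14 over all genes. Of the 29, 8 were above 0, beside 40% of all genes. Their median of KO minus WT was -1.04 in intact and 0.20 in ovx. The call of Ctgf was kept in 3 of 12 omissions (adjusted p up to 0.113), that of Inhbb in 6 (up to 0.0701) and that of Prap1 in 12. Cell cycle genes (0 of 25, median -0.02) and ribosomal protein genes (0 of 28, median 0.05) gave no calls, and 0 of either list had an unadjusted p under 0.05.

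The E2 libraries gave the genotype difference in another hormone state. Their values are no term of the interaction, but they count in the filter and in the shared estimate of the spread: with the 12 libraries alone fitted, 767 genes were called, 514 of them among the 643. Under E2, KO was higher than WT in 23.8% of the 501 negative genes and 73.2% of the 142 positive genes, beside 44% of all genes tested. KO minus WT under E2 had the sign it had in intact for 77.6% of the 643 genes (67% of all tested) and the sign it had in ovx for 25% (41.5% of all tested). The 643 were chosen for a difference between intact and ovx, and 91.4% had opposite signs there, so these 2 shares are not separate results. At an adjusted p under 0.05, which 8.49% of all genes reached, 58 of the negative genes (11.6%) were called lower in KO E2 and 7 higher, against 3.58% and 4.91% of all genes. Of the positive genes 8 were called higher and 2 lower. Genes are not independent replicates, and these shares carry no test.

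Single genes differed in this respect. Fxyd4 was lower in KO E2 too (-3.31, adjusted p = 0.0154), although KO E2 replicate 2 stood at 20.9 FPKM beside 0.203 and 0.636 in replicates 1 and 3. Fst was higher in KO E2, at 1.51, 0.802 and 1.05 FPKM against 0.213, 0.333 and 0.231 in WT E2 (0.74, adjusted p = 0.0421). Wif1 was at or below 0.028 FPKM in all 6 E2 libraries. Isg15 stood high in both E2 groups, at 16.7, 46.6 and 61.3 FPKM in WT E2 and 11.1, 32.3 and 22.2 in KO E2, where the groups overlapped.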

How the data were processed

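Uterine RNA was sequenced from 18 samples with a stranded, single-end mRNA kit, per the labels' protocols. The authors deposited FPKM values, made with Cufflinks 2.0.2 and Cuffdiff per the submitters' processing notes; the aligner, annotation and build are not given in the sources used here. Gene positions of the table overlapped those of GENCODE M21 on GRCm38 for 12.4% of 20441 matched symbols, so they belong to another build and are printed as the table has them. Read totals cannot be had from FPKM, which leaves depth unknown and counting error without an estimate.

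Values were taken as log2(FPKM + 1), a scale that understates the fold of low genes. Genes with at least 1 FPKM in 3 or more of the 18 libraries were tested with limma 3.58.1 in R 4.3.3: a mean for each of 6 groups, eBayes with a trend, two-sided, and Benjamini-Hochberg adjustment over 13898 genes within each comparison. All 6 groups shared 1 estimate of the spread. Values are log2 differences with the model's SE, and called means an adjusted p under 0.05. The genes named were the 15 most positive and 15 most negative called genes with a mean of at least 5 FPKM in 1 of the 4 groups, up to 4 members of each list by smallest p, and Tsc2, Tsc1, Esr1 and Pgr; further genes are said to have been named after their values were seen. Members and lists were chosen with earlier results of these data known, and no set test was run.

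Sets of libraries were found by clustering on shared ratios of values above 0 and up to 0.05 FPKM in both libraries of a pair. The measure was the largest share of these genes whose log2 ratios fell in a single window of 0.02. Its median was 7.33% for pairs in a set (lowest 3.56%). For pairs of other sets with ovaries alike it was 2.91% (highest 3.98%, so the ranges overlapped). For pairs between intact and ovariectomized libraries it was 1.47%. Promoters are from the RefSeq table. The test was tried on simulated data, and figures were drawn with matplotlib 3.10.9 in Python 3.11.15. Alternatives were other pseudocounts (0.1 and 5), filters, scalings, variance models, sets of libraries, a replicate block, and leaving out each library. Leaving out WT intact replicate 4 and KO ovx replicate 4 together was chosen after seeing the data. Some called list members are not reported here.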

Additional observations from a re-analysis of the deposited data

Results flagged for a closer look

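The genotype difference itself differed between intact and ovx mice, by the limma test of the interaction, at 643 genes. The values for the 30 genes named by size are repeated here as log2 interactions. Positive ones were Cldn5 (3.74), Fn1 (3.73), Des (3.57), Mustn1 (3.53), Serpinb11 (3.28), Thbd (3.21), Inhbb (3.1), Pgm5 (3.0), Pecam1 (2.98), Tspan7 (2.83), Cldn2 (2.78), Mmrn2 (2.64), Aspn (2.6), H19 (2.59) and Ednra (2.58). Negative ones were Prap1 (-8.82), Pdzk1ip1 (-6.53), Serpina1e (-6.4), Serpina1b (-6.35), Serpina1c (-6.34), Fxyd4 (-6.21), Serpina1a (-6.21), Serpina1d (-6.17), Calb1 (-5.83), Hdc (-5.75), Fxyd2 (-5.69), Slc5a11 (-5.22), LOC100504190 (-5.06), Ckmt1 (-5.0) and Sult1d1 (-4.93). Groups of 3 are too small for a check of single outlying samples.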

How the results depend on the processing

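The 643 genes had the same sign of interaction under every alternative that kept them. They were chosen for their interaction in these same libraries, so the kept sign is no independent support. With the replicate number as a block, 397 genes were called (71 positive and 326 negative). With this block, KO against WT gave 545 calls in intact and 399 in ovx. Whether the numbers pair the samples is not known, and the main fit did not use them. For deviations from group means, same-numbered pairs had r of -0.181 to 0.339 (median 0.184), with 8 of 13 over 0.1. Other pairs had a median of -0.047, with 12 of 41 over 0.1. With the sets of libraries as a term, 389 genes (279 negative) and 429 in ovx were called. Within the largest sets there were 24 (10 and 14), 42 in intact, 63 in ovx, 889 for intact against ovx in KO, and 3 list genes called, with fewer samples. The main fit called 82 list genes, and the list counts of other fits need not be among those 82. Quantile normalization gave 1495 (674 and 821), 535, 1978, 3673 and 135, and moved the median of all genes from -0.14 to 0.01, with 54.9% of calls negative in place of 77.9%; median-ratio scaling gave 276 positive calls. Library weights gave 1657 (467 and 1190), 1859, 1863, 5136 and 157. No filter gave 281 positive calls (60% of calls negative); the 5 FPKM filter tested fewer genes and gave 58, with 88.6% negative, 183 in intact, and 3857 in WT and 1329 in KO for intact against ovx. The 12 libraries alone gave 490 in intact. Without WT intact replicate 4 and KO ovx replicate 4, 199 genes (26 and 173) and 36 list genes were called.

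Leaving out each library gave 87 to 1178 interaction calls (15 to 304 positive, 72 to 874 negative), 66 to 674 in intact, 149 to 912 in ovx, 4256 to 6077 and 1167 to 2700 for intact against ovx in WT and KO, and 22 to 133 list calls. The Tsc2 interaction (-0.06) turned to 0.019 under median-ratio scaling, 0.091 under quantile normalization and 0.019 without KO ovx replicate 2 (range -0.16 to 0.02 over omissions), and that of Pgr to 0.21 under quantile normalization and 0.13 without WT intact replicate 1 (range -0.62 to 0.13 over omissions). None of these passed the test. The cause was not tested. Depth is unknown, so low levels carry an unknown counting error.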
